A study of Mus musculus with 5 samples.

Results

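Interferon-stimulated genes are the transcripts that cells switch on when an interferon binds its receptor, and they were followed here in cultured mouse CD8 T cells given the cytokine IL-21. The list held 41 genes of known interferon response, taken up regardless of their level but with earlier results of these data known. Counts and medians over the list therefore carry no test. Of these, 28 had a probe set on the array that the annotation ties to a single gene, out of 8251 such genes in all. Where a gene had several such probe sets, the one with the highest mean over the 5 arrays stood for it. The other 13 listed genes, Oas1a, Oas2, Oasl1, Oasl2, Bst2, Zbp1, Gbp4, Gbp5, Tgtp1, Ddx58, Ifi203, Ifi205 and Ly6a, were not analysed here. A filter on low mean signal kept 18 of the 28, and the 10 below it are described by their levels without a test.

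All cells were CD44lo CD8+ T cells, enriched by depletion from the lymph nodes of C57BL/6 mice aged 6 to 8 weeks. These OT-1 mice carry a transgenic T cell receptor for an ovalbumin peptide. Every culture received latex microspheres coated with the peptide on its class I molecule H-2Kb together with B7-1, the ligand of CD28, and every culture received human rIL-2. With murine IL-21 there was 1 array at 72 h and there were 2 arrays at 48 h, and without IL-21 there were 2 arrays at 48 h. Each array is titled a biological replicate with a number, 1 or 2, and the 72 h array carries number 1. Nothing in the labels says whether cultures or mice were separate or what the numbers stand for, so p-values measure only the spread between these samples. A 72 h culture without IL-21 was not analysed here, and therefore the 72 h comparison describes time in the presence of IL-21. In such bulk RNA, fewer cells of a type and less RNA per cell cannot be told apart.

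As background, type I interferons signal through the receptor chains Ifnar1 and Ifnar2 to a complex that contains Irf9 and binds the interferon-stimulated response element. Interferon gamma, which activated CD8 T cells make themselves, signals through Ifngr1 and Ifngr2, and many of its target genes carry the gamma-activated sequence. The antiviral effectors (such as Isg15, the Ifit, Mx and Oas proteins) block steps of viral replication, whereas the gamma-interferon GTPases (the guanylate-binding proteins and the immunity-related GTPases) attack the vacuoles of intracellular parasites and bacteria. The class I antigen-processing genes are a further set of interferon targets.

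The promoters of 8 members that the results below turn on are printed because they show which of these elements lie just before genes that did and did not differ between arrays. Each line holds the 120 bases upstream of the annotated start in the gene's own direction, from RefSeq on build GRCm38.p6. Capitals mark matches, on either strand, to the response element (GAAA, any 2 bases, GAAA) or to the gamma-activated sequence TTCNNNGAA.
Isg15, chr4:156200819-156200938, minus strand: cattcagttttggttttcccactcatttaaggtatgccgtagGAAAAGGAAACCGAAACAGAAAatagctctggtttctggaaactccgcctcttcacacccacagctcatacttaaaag
Trim30a, chr7:104465194-104465313, minus strand: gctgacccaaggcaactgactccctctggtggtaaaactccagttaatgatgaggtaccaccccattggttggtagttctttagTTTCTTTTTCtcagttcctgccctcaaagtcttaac
Ifi47, chr11:49076467-49076586, plus strand: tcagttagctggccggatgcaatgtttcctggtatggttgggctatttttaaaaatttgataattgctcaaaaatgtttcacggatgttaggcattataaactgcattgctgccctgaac
Igtp, chr11:58199436-58199555, plus strand: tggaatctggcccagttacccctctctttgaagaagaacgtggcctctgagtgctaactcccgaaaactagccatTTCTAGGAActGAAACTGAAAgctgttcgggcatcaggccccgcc
Irgm1, chr11:48871421-48871540, minus strand: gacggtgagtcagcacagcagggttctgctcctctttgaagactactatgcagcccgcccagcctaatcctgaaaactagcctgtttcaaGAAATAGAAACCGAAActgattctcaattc
Gbp2, chr3:142620543-142620662, plus strand: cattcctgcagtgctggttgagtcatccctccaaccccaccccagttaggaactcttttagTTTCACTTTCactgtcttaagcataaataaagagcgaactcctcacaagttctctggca
Gbp3, chr3:142559924-142560043, plus strand: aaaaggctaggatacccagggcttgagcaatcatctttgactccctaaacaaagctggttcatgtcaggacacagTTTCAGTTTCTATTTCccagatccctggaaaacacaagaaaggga
Irf1, chr11:53769894-53770013, plus strand: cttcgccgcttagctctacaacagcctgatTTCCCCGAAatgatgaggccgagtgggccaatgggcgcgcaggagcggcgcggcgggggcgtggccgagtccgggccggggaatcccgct

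The run of capitals in Isg15 is made of 3 overlapping matches to the response element and begins 78 bases before the start. Those in Irgm1 and in Gbp3 each hold 2 matches, and begin 30 and 45 bases before their starts. Igtp carries 1 match to each motif, 34 bases before the start for the response element and 45 for the gamma-activated sequence. Irf1 carries only the gamma-activated sequence, 90 bases before its start, and Ifi47 has no match to these letters in the window. Of the 28 members, 21 had a promoter in the table, with 28 start sites among them. Within 250 bases upstream, 11 of these start sites (39.3%), each of a different gene, held the response element, against 2.98% of all 32851 promoters in the table. The gamma-activated sequence stood before 6 start sites (21.4%), against 7.02% of all promoters. Trim30a, Gbp3 and Irf1 each had a second start site, not printed, with no match to either motif in the 250 bases. No match of one motif overlapped a match of the other, and 5 genes, Ifi47, Irf7, Irf9, Ifih1 and Ifi35, had neither. Iigp1, Ifi27, Mx1, Mx2, Ifi204, Ly6e and Usp18 had no entry. The genes were listed for their known interferon response, so these shares describe the list.

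Before scaling, the arrays' trimmed mean signals ranged from 65.3 to 105.6 units, and the 2 arrays with IL-21 at 48 h were the brightest. Quantile normalisation removed this spread, and all signals below are normalised and include an offset of 1.53 units, which makes differences of dim genes too small. Among 9 markers of CD8 T cells, 8 had a probe set and all 8 passed the filter, with summed signals of 9250 at 72 h, of 6614 on replicate 2 and 6158 on replicate 1 at 48 h with IL-21, and of 6121 on replicate 2 and 6146 on replicate 1 at 48 h without it.

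With IL-21 at 48 h, no interferon-stimulated gene passed the test against the cultures without it, and neither did any other probe set. That fit held no term for replicate number. At 72 h, Samhd1 alone of the 18 genes past the filter rose, while 11.2% of all tested probe sets passed. The arrays numbered 2 and 1 at 48 h differed at 5 of these 18 genes, against 2.54% of all tested probe sets. As the list was chosen with earlier results known, these shares describe it and do not test it. Isg15, Iigp1, Trim30a, Ifi27 and Ifi47 were all lower on the replicate 2 arrays, whether IL-21 was present or not.

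**Figure D1:**
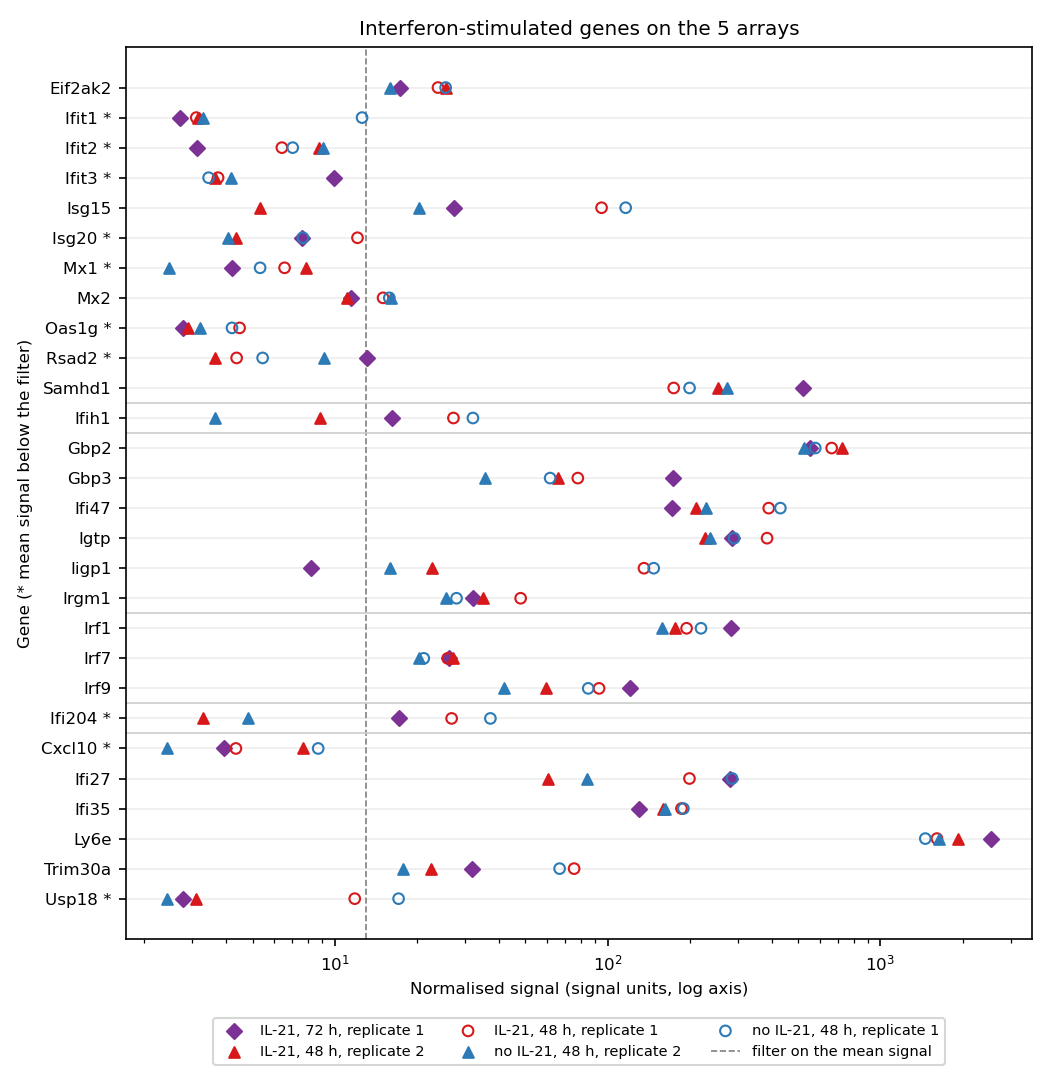
Normalised signal (horizontal, log axis) of each of the 28 interferon-stimulated genes on each of the 5 arrays, grouped by role, with the dashed line at the filter level of 13.0 signal units and an asterisk on the 10 genes whose mean lies below it. Isg15, Iigp1, Ifi27 and Trim30a show both replicate 2 arrays (triangles) well to the left of both replicate 1 arrays (open circles), whereas Gbp2 and Irf7 show all arrays close together.

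The gamma-interferon GTPases were measured by 6 genes, and all 6 passed the filter. Iigp1, an immunity-related GTPase that coats and breaks open parasite vacuoles, had a signal of 8.21 at 72 h. At 48 h it had 22.7 on replicate 2 and 136 on replicate 1 with IL-21, and 15.9 on replicate 2 and 148 on replicate 1 without it. Both replicate 2 arrays and the 72 h array were thus low and both replicate 1 arrays at 48 h high, with no overlap between the numbers. Iigp1 was 7.44-fold lower on replicate 2, a log2 difference of -2.90 ± 0.26 (SE; limma, adjusted p = 0.0017). The difference of IL-21 from none was 0.20 on the log2 scale (adjusted p = 0.998) and that of 72 h from 48 h was -2.76 ± 1.48 (SE, adjusted p = 0.295). A second probe set of Iigp1, of the kind whose probes match several members of a gene family, gave log2 differences of -2.70 between the replicate numbers (adjusted p = 0.003) and of -2.22 between the times (adjusted p = 0.367).

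Ifi47, another immunity-related GTPase, had 172.8 signal units at 72 h. It had 212 on replicate 2 and 389.7 on replicate 1 with IL-21 at 48 h, and 229 on replicate 2 and 429.9 on replicate 1 without IL-21. The replicate 2 arrays lay below the replicate 1 arrays by nearly the same log2 difference in both treatments, -0.88 with IL-21 and -0.91 without it. Ifi47 fell by 0.90 on the log2 scale (SE 0.12, limma adjusted p = 0.0094) on replicate 2 against replicate 1. The call was lost when the arrays were centred on their medians (adjusted p = 0.0504) or scaled on hybridisation controls (adjusted p = 0.196).

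Igtp, a regulatory immunity-related GTPase of the endoplasmic reticulum, had 286 units at 72 h, 227 on replicate 2 and 384 on replicate 1 with IL-21 at 48 h, and 238 on replicate 2 and 291 on replicate 1 without it. Its replicate 2 arrays were below its replicate 1 arrays without overlap, but the log2 difference of -0.53 did not pass the test (adjusted p = 0.118). Irgm1, which guards the cell's own membranes, had 32.1 units at 72 h, 35.0 on replicate 2 and 48.0 on replicate 1 with IL-21 at 48 h, and 25.5 on replicate 2 and 28.0 on replicate 1 without it. Both of its IL-21 arrays at 48 h lay above both arrays without IL-21, with a log2 difference of 0.62 ± 0.28 (SE) and an adjusted p of 0.967.

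Of the guanylate-binding proteins among the members, neither Gbp2 nor Gbp3 passed in any of the comparisons. Gbp2 had 550.5 units at 72 h, 722 on replicate 2 and 663 on replicate 1 with IL-21 at 48 h, and 523 on replicate 2 and 577 on replicate 1 without it. The replicate numbers overlapped (log2 difference -0.01 ± 0.11, SE), and both IL-21 arrays at 48 h were above both arrays without IL-21 by a log2 difference of 0.33 ± 0.13 (SE, adjusted p = 0.967). Gbp3 had 173 units at 72 h, 65.6 on replicate 2 and 77.8 on replicate 1 with IL-21 at 48 h, and 35.5 on replicate 2 and 61.6 on replicate 1 without it. Its 72 h array was the highest, at a log2 difference of 1.28 ± 0.37 from 48 h (SE, adjusted p = 0.083). That between IL-21 and none was 0.61 ± 0.30 (SE, adjusted p = 0.967).

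Of the 11 antiviral effectors with a probe set, 4 passed the filter. Isg15, a ubiquitin-like protein that is attached to viral and host proteins, had 27.5 units at 72 h. It had 5.32 on replicate 2 and 95.1 on replicate 1 with IL-21 at 48 h, against 20.3 on replicate 2 and 117 on replicate 1 without it. The replicate 2 arrays were low in both treatments, and the lowest array was the one with IL-21. Isg15 was 10.1-fold lower on replicate 2 (log2 difference -3.34 ± 0.39, SE, limma adjusted p = 0.005), which was the lowest difference of all 7453 probe sets. Its mean over the replicate 2 arrays at 48 h was 10.4 units, below the filter level of 13.0. The size of the fold and its rank thus rest on low signals, for which no detection calls were at hand. Its difference between IL-21 and none was -1.11 ± 1.42 on the log2 scale (SE, adjusted p = 0.985) and that between 72 h and 48 h was 0.29 ± 1.74 (SE, adjusted p = 0.94).

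Samhd1, which hydrolyses the deoxynucleotides that retroviruses need, had 521 units at 72 h, 254 on replicate 2 and 175 on replicate 1 with IL-21 at 48 h, and 274 on replicate 2 and 199.8 on replicate 1 without it. The 72 h array stood above all others, and both replicate 2 arrays stood above both replicate 1 arrays. Samhd1 rose at 72 h with a log2 difference of 1.31 ± 0.30 (SE, limma adjusted p = 0.0464) and was 0.50 higher on the log2 scale on replicate 2 without passing (adjusted p = 0.0836). The call at 72 h was lost when any one of the 4 arrays at 48 h was left out, and adjusted p was then 0.0607 or higher. It was also lost on unscaled values, after centring on array medians, without the filter, with the mean of both probe sets and with variances not tied to signal, at adjusted p between 0.0683 and 0.154. A second, dimmer probe set of Samhd1 gave a log2 difference of 0.30 between the times (adjusted p = 0.707).

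Eif2ak2, the kinase that halts translation on sensing double-stranded RNA, had 17.3 units at 72 h, 25.6 on replicate 2 and 23.9 on replicate 1 with IL-21 at 48 h, and 16.0 on replicate 2 and 25.5 on replicate 1 without it. The groups overlapped except that the 72 h array was below both 48 h arrays with IL-21. Mx2, a dynamin-like GTPase, lay between 11.1 and 16.1 units on all 5 arrays, close to the filter level. No difference of Eif2ak2 or Mx2 passed in any of the comparisons.

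The other 7 effectors lay below the filter. These were Ifit1, Ifit2 and Ifit3, which bind viral RNA, Isg20, an exonuclease, Mx1, Oas1g, a synthetase of oligoadenylates, and Rsad2, which makes a chain-terminating nucleotide. Their signals ranged from 2.48 to 13.1 units over the 5 arrays. Isg20 had 4.36 on replicate 2 and 12.1 on replicate 1 with IL-21 at 48 h, and 4.05 on replicate 2 and 7.65 on replicate 1 without it. Ifit1 reached 12.6 on replicate 1 without IL-21 and lay at 3.29 or below on the other 4 arrays. The sources used here hold no detection calls, so whether these low values stood above background could not be said.

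Among the interferon regulatory factors, Irf9, the DNA-binding subunit of the type I complex, had 121 units at 72 h. It had 59.6 on replicate 2 and 93.1 on replicate 1 with IL-21 at 48 h, and 41.8 on replicate 2 and 85.0 on replicate 1 without it. Both replicate 2 arrays were below both replicate 1 arrays, with a log2 difference of -0.83 ± 0.18 that did not pass (SE, adjusted p = 0.0602). Irf1, an early activator downstream of interferon gamma, had 284 units at 72 h, 176 on replicate 2 and 195 on replicate 1 with IL-21 at 48 h, and 158 on replicate 2 and 220.1 on replicate 1 without it. The IL-21 and no IL-21 arrays of Irf1 overlapped at a log2 difference of -0.01 ± 0.21 (SE). Irf7, the factor that amplifies type I interferon production, lay between 20.3 and 27.2 units on all arrays. Its second probe set gave differences of the other sign for IL-21 against none (-0.45 against 0.36 on the log2 scale) and for the times (0.98 against -0.02), and neither probe set passed.

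Ifih1, a cytosolic sensor of long double-stranded RNA, had 16.2 units at 72 h, 8.81 on replicate 2 and 27.2 on replicate 1 with IL-21 at 48 h, and 3.65 on replicate 2 and 32.1 on replicate 1 without it. The replicate 2 arrays were the lowest of the 5 in both treatments. The log2 difference of -2.38 ± 0.53 between the numbers did not pass (SE, adjusted p = 0.0606). Ifi204, a nucleic acid sensor of the p200 family that lay below the filter, had 17.2 units at 72 h, 3.30 on replicate 2 and 26.8 on replicate 1 with IL-21 at 48 h, and 4.81 on replicate 2 and 37.2 on replicate 1 without it. Its replicate 2 arrays were likewise the lowest of the 5, at an untested log2 difference of -2.99. The probe set that stood for it is of the kind shared within a gene family, so signal from related p200 genes cannot be told apart. Another probe set of Ifi204, also below the filter, had untested log2 differences between the numbers of -2.28 with IL-21 and -0.19 without it. It gave the other sign for IL-21 against none (0.68 against -0.51) and for the times (-0.28 against 0.87). A further, dimmer probe set had an untested difference of 0.80 between the numbers, in the other direction, with overlap.

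The remaining members form no single pathway. Ifi27, a small hydrophobic membrane protein, had 282 units at 72 h, 60.4 on replicate 2 and 199.6 on replicate 1 with IL-21 at 48 h, and 84.0 on replicate 2 and 286 on replicate 1 without it. The replicate 2 arrays were low and the 72 h array was as high as replicate 1 without IL-21. Ifi27 was 3.36-fold lower on replicate 2 (log2 difference -1.75 ± 0.14, SE, limma adjusted p = 0.001).

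Trim30a, a mouse protein that restrains inflammatory signalling, had 31.8 units at 72 h, 22.6 on replicate 2 and 75.4 on replicate 1 with IL-21 at 48 h, and 17.7 on replicate 2 and 66.7 on replicate 1 without it. Again both replicate 2 arrays lay below both replicate 1 arrays. Trim30a was 3.55-fold lower on replicate 2 (log2 difference -1.83 ± 0.24, SE, limma adjusted p = 0.0086). A second probe set of Trim30a, below the filter at 1.68 to 4.58 units, had an untested difference of 1.05 in the other direction, and the mean of both probe sets did not pass (log2 difference -0.39, adjusted p = 0.806).

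Ly6e, a lipid-anchored surface protein, had 2539 units at 72 h, 1917 on replicate 2 and 1612 on replicate 1 with IL-21 at 48 h, and 1634 on replicate 2 and 1461 on replicate 1 without it. The 72 h array was the highest, and no comparison passed. A second, dim probe set of Ly6e gave log2 differences of -0.73 between the times and -0.24 between the replicate numbers, opposite in sign to 0.53 and 0.21 from the first. Ifi35 lay between 130.3 and 189.7 units on all arrays. Usp18, which strips Isg15 from proteins and damps the type I receptor, lay below the filter, with 2.79 units at 72 h. It had 3.11 on replicate 2 and 11.8 on replicate 1 with IL-21 at 48 h, and 2.43 on replicate 2 and 17.1 on replicate 1 without it. Both replicate 2 arrays were low and both replicate 1 arrays high, as for Isg15. Cxcl10, a chemokine that attracts T cells, lay between 2.44 and 8.70 units.

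The comparison of IL-21 with none at 48 h asked whether IL-21 changed the program at a fixed time. IL-21 arrays were higher at 14 of the 28 genes and lower at 14, and the median log2 difference was 0.08, against -0.01 over all 12422 probe sets. None of the 18 tested genes passed, and 1, Gbp2, had an unadjusted p under 0.05. Over all 7453 probe sets tested, 0 (0% higher and 0% lower) passed limma at an adjusted p of 0.05, and 327 (4.39%) had an unadjusted p under 0.05. The fit held no term for replicate number, so differences between the numbers added to its error. With such a term, which left 1 residual degree of freedom, 9 probe sets passed higher and 2 lower, with no member among them. Both IL-21 arrays lay above both arrays without it at 5 of the 28 genes and below them at 3, against 15.9% above and 17.5% below over all probe sets. The 5 were Mx1, Gbp2, Gbp3, Irgm1 and Irf7, and the 3 were Ifit1, Mx2 and Rsad2. Pairs of arrays of the same number gave medians of 0.13 for number 2 and -0.08 for number 1.

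The comparison of 72 h with 48 h, both with IL-21, rests on 1 array at 72 h, which was assumed to vary like the 48 h groups, and its fit held no term for replicate number. At 72 h, 12 of the 28 genes were higher and 16 lower, and the median log2 difference was -0.11, against -0.01 over all probe sets. Among the 18 tested, 1 rose (Samhd1) and none fell, while 832 of the 7453 probe sets (11.2%) passed, 301 higher (4.04%) and 531 lower (7.12%). Without either of the 48 h arrays with IL-21, 0 probe sets passed in limma (1697 and 1749 at an unadjusted p under 0.05), and without an array lacking IL-21 450 or 453 did. In the full fit an unadjusted p under 0.05 was reached by 4 of the 18 genes, against 27.3% of all probe sets. The 72 h array was above both 48 h arrays at 8 of the 28 genes and below both at 12, against 36% above and 38.7% below over all probe sets. Which 48 h array served as the reference set the sign of the median. Against replicate 2 at 48 h, 15 genes were higher at 72 h and 13 were lower (median 0.19). Against replicate 1, whose number the 72 h array shares, 9 were higher and 19 were lower (median -0.45). The arrays with IL-21 at 48 h are common to this comparison and to that of IL-21 with none.

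The difference between replicate numbers was fitted with treatment and time as further terms and rests on the 4 arrays at 48 h. The replicate 2 arrays were higher at 6 of the 28 genes and lower at 22, and the median log2 difference was -0.51, against 0.00 over all probe sets. Both replicate 2 arrays lay below both replicate 1 arrays at 14 of the 28 genes and above them at 3, against 20.8% below and 19.8% above over all probe sets. Of the 18 tested, 5 fell and none rose, while 189 of the 7453 probe sets (2.54%) passed, 102 higher (1.37%) and 87 lower (1.17%). An unadjusted p under 0.05 was reached by 11 of the 18 genes, against 16.9% of all probe sets. With IL-21 the replicate 2 array was lower at 19 of the 28 genes (median -0.35), and without IL-21 at 22 of the 28 (median -0.73).

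**Figure D2:**
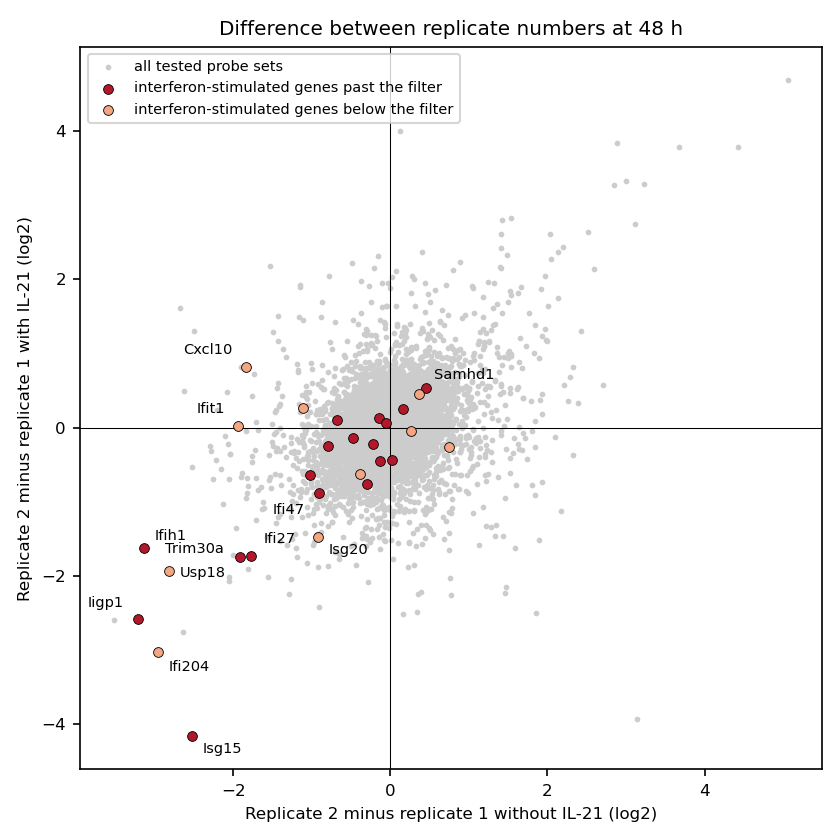
Log2 difference of the replicate 2 array from the replicate 1 array at 48 h, with IL-21 (vertical) and without IL-21 (horizontal), for all 7453 tested probe sets (grey), the 18 interferon-stimulated genes past the filter (dark) and the 10 below it (light). Isg15, Iigp1, Ifih1, Trim30a, Ifi27, Ifi204 and Usp18 lie at the lower left edge of the cloud, at -1.63 or lower in both treatments.

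This test had 1 residual degree of freedom, and on simulated arrays it called more unchanged probe sets than its threshold allows. With variances not tied to the mean signal, 0 probe sets passed, members included, although 994 still had an unadjusted p under 0.05. The numbers are read here as a difference between these arrays and not as a condition of the study.

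**Figure D3:**
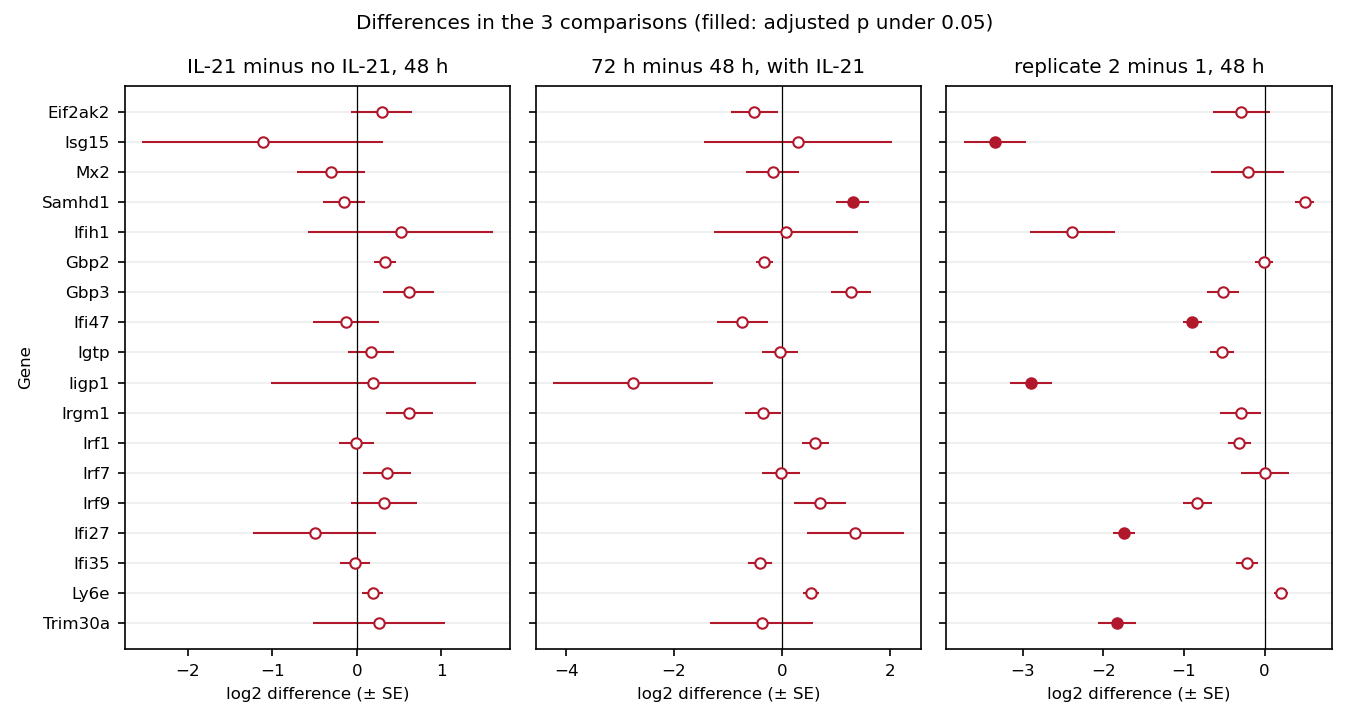
Log2 differences (circles) with standard errors (bars) of the 18 genes past the filter for IL-21 minus no IL-21, 72 h minus 48 h with IL-21, and replicate 2 minus replicate 1 at 48 h. Filled circles passed at an adjusted p of 0.05, which were Samhd1 at 1.31 in the middle panel and Isg15, Ifi47, Iigp1, Ifi27 and Trim30a in the right panel.

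The antiviral effectors and the gamma-interferon GTPases were set side by side by their class medians. For IL-21 against none, 3 of the 11 effectors were higher and 8 lower, and 5 of the 6 GTPases were higher and 1 lower. The class medians were -0.09 for the effectors and 0.26 for the GTPases, a difference of -0.36 on the log2 scale. At 72 h against 48 h the medians were -0.17 for the effectors and -0.34 for the GTPases, a difference of 0.17. Between the replicate numbers they were -0.29 for the effectors, with 4 higher and 7 lower, and -0.52 for the GTPases, with none higher and 6 lower. That was a difference of 0.24. The SD of the class difference between replicates at 48 h, also 0.24, was taken over the effectors past the filter. It was computed from these same replicate differences, so it cannot judge them. Over the 4 effectors past the filter the differences were -0.49, 0.40 and 0.27 for the same 3 comparisons. No test was made of the classes. Iigp1 and Isg15, the genes with the lowest replicate differences of their classes, had log2 differences of 0.20 and -1.11 between IL-21 and none.

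Genes upstream of the interferon response were followed as a list of their own. The list of interferon receptors, kinases, STATs and feedback regulators held 17 genes, of which 15 had a probe set and 12 passed the filter. At 72 h, 3 of these rose and none fell, while 4.04% of all probe sets rose and 7.12% fell. These calls, like those of Irf4 and Sp100 below, rest on the 1 array at 72 h. With variances not tied to mean signal, 0 probe sets passed in that comparison. Ifngr1, the ligand-binding chain of the interferon gamma receptor, had 115 units at 72 h, against 37.0 on replicate 2 and 32.1 on replicate 1 at 48 h with IL-21. Ifngr1 was thus 3.34-fold higher at 72 h (log2 difference 1.74 ± 0.27, SE, limma adjusted p = 0.018). Jak1, the kinase shared by both receptors, was 0.88 ± 0.18 higher on the log2 scale (SE, adjusted p = 0.0336), and Ifnar1, a chain of the type I receptor, was 1.33 ± 0.31 higher (SE, adjusted p = 0.0475). Ifnar2, the other chain, was at 0.79 ± 0.30 without passing (SE, adjusted p = 0.162).

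At 48 h with IL-21, the receptors did not pass. Ifnar2 had 40.1 and 34.9 units on replicates 2 and 1 with IL-21, and 23.1 and 27.1 units on replicates 2 and 1 without it, a log2 difference of 0.58 (adjusted p = 0.967). Ifngr1 was at -0.49 and Jak2, a kinase of the interferon gamma receptor, at -0.47 (adjusted p = 0.967 for each). Between the replicate numbers, 1 of the 12 genes passed, against 2.54% of all probe sets, and it lay in the opposite direction from Isg15. Socs3, a feedback inhibitor of cytokine receptors that signal through STAT3, had 123 units at 72 h. It had 56.2 on replicate 2 and 26.1 on replicate 1 with IL-21 at 48 h, and 88.3 on replicate 2 and 26.8 on replicate 1 without it (log2 difference 1.41 ± 0.22, SE, adjusted p = 0.0201). A second probe set of Socs3 gave a replicate difference of 2.93 (adjusted p = 0.00073). Socs1, which inhibits the interferon receptors' kinases, was at 0.64 (adjusted p = 0.176) and Stat3 at 0.38 (adjusted p = 0.134).

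Interferon gamma itself, Ifng, lay below the filter and has no test. It had 3.44 units at 72 h, 7.63 on replicate 2 and 17.1 on replicate 1 with IL-21 at 48 h, and 3.30 on replicate 2 and 20.9 on replicate 1 without it. Both replicate 2 arrays were below both replicate 1 arrays, as at 20.8% of all probe sets. Any link between Ifng and the other genes was not tested. Ifnb1, a type I interferon, and Ifngr2 also lay below the filter.

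The list of class I antigen processing held 13 genes, of which 10 had a probe set, and all 10 passed the filter. All 10 were lower on replicate 2, with a median log2 difference of -0.39, and 4 passed, against 1.17% of all probe sets lower. Tapbp, which loads peptide onto class I molecules, had 696 units at 72 h. It had 221 on replicate 2 and 424 on replicate 1 with IL-21 at 48 h, and 202 on replicate 2 and 448 on replicate 1 without it. The replicate 2 arrays were the lowest of the 5, at a log2 difference of -1.04 ± 0.12 from replicate 1 (SE, limma adjusted p = 0.0049). Tap1, a chain of the peptide transporter, fell by 0.94 on the log2 scale on replicate 2 (adjusted p = 0.0064) and B2m, the light chain of class I, by 0.64 (adjusted p = 0.0249). The fourth gene was H2-D1, a class I heavy chain named after its value was seen, at -0.45 (adjusted p = 0.0376).

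**Figure D4:**
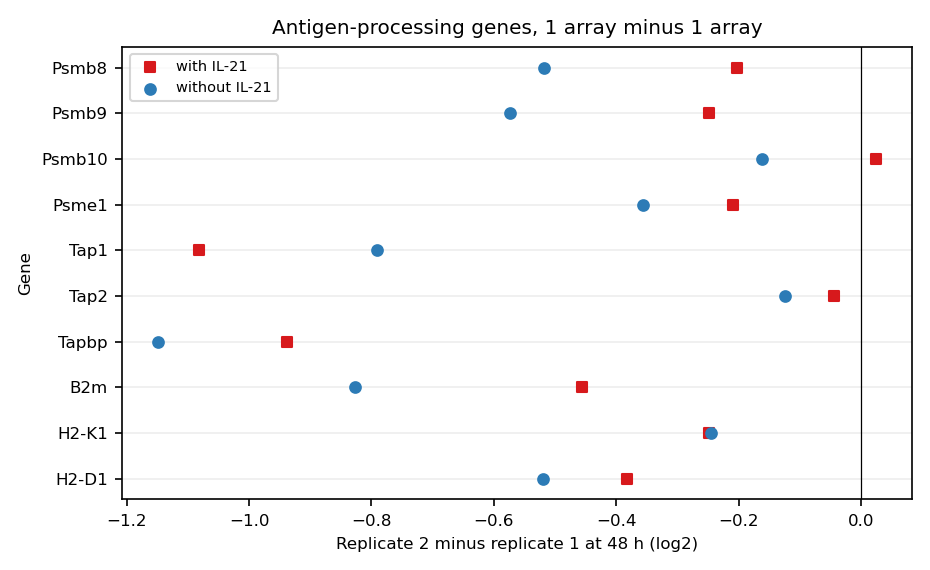
Log2 difference of the replicate 2 array from the replicate 1 array at 48 h for the 10 class I antigen-processing genes, with IL-21 (squares) and without it (circles). All values lie below 0 except that of Psmb10 with IL-21, at 0.02, and the values farthest to the left are those of Tap1 with IL-21, at -1.08, and of Tapbp without it, at -1.15.

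By treatment and by time no antigen-processing gene passed. With IL-21 against none, 4 were higher and 6 were lower, and their median was -0.03. At 72 h against 48 h, 8 were higher and 2 were lower, and their median was 0.51. The smallest adjusted p at 72 h belonged to Tap2, the other chain of the transporter, at 0.0513 with a log2 difference of 0.89. The immunoproteasome subunits Psmb9 and Psmb10 had log2 differences of 0.85 (adjusted p = 0.0985) and 0.54 (adjusted p = 0.107).

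Of 6 further interferon regulatory factors, 4 had a probe set and passed the filter. Irf4, which T cells induce in proportion to receptor signalling, fell by 2.48 on the log2 scale (SE 0.12, limma adjusted p = 0.0068) at 72 h, with 346 units at 72 h against 2009.5 and 1858 units on replicates 2 and 1 at 48 h with IL-21. Its log2 difference by replicate number was 0.06 ± 0.09 (SE). Irf8, a factor also used by dendritic and B cells, had 139 on replicate 2 and 297 on replicate 1 with IL-21 at 48 h, and 184 on replicate 2 and 307 on replicate 1 without it. Irf8 fell by 0.92 on the log2 scale (SE 0.14, limma adjusted p = 0.0201) on replicate 2.

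Of 40 further interferon-stimulated genes, 26 had a probe set and 21 passed the filter. Between the replicate numbers 8 of the 26 were higher on replicate 2 and 18 were lower (median -0.19), and among the 21 tested 1 rose and 2 fell, against 1.37% higher and 1.17% lower of all probe sets. Ifitm3, a membrane protein that blocks viral fusion, rose by a log2 difference of 1.60 ± 0.18 (SE, limma adjusted p = 0.005). It had 220 on replicate 2 and 56.6 on replicate 1 with IL-21 at 48 h, and 261 on replicate 2 and 110.1 on replicate 1 without it. Interferon-stimulated genes thus lay in both directions. Lgals9, a secreted galectin, fell by 0.70 on the log2 scale (adjusted p = 0.0285), and Gbp7, a further guanylate-binding protein, by 1.25 (adjusted p = 0.0474). At 72 h, 1 of the 21 passed, against 11.2% of all probe sets. It was Sp100, a nuclear body protein, which rose by a log2 difference of 1.57 ± 0.36 (SE, adjusted p = 0.0451). With IL-21 against none, none of the 21 passed.

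Among markers of other cells, 2 of the myeloid and dendritic list and 1 of the B cell list passed between the replicate numbers, and none of the CD4 and regulatory T cell or NK lists. Among 17 myeloid and dendritic markers with a probe set, 13 were lower on replicate 2. With IL-21, 15 were lower and 2 higher (median log2 difference -0.44), and without it 9 were lower and 8 higher (median -0.09). Of the 10 past the filter 2 fell, against 1.17% of all probe sets. These were Cd74, the class II invariant chain, at -1.24 (adjusted p = 0.0112), and Ctss, a lysosomal protease, at -0.82 (adjusted p = 0.0161). Summed over the 17 markers, signals were 824 at 72 h, and 496 on replicate 2 and 750.0 on replicate 1 with IL-21 at 48 h. Without IL-21 the sums were 625 on replicate 2 and 864 on replicate 1. Most of the difference between the numbers in these sums came from Ctss and Cd74. Ctss had 161 on replicate 2 and 299 on replicate 1 with IL-21 at 48 h, and 219 and 366 without it. Cd74 had 42.0 on replicate 2 and 97.3 on replicate 1 with IL-21, and 64.8 and 156 without it. The other 8 past the filter, Cd14, Csf1r, Itgax, Cd68, H2-Ab1, H2-Eb1, Ccl22 and Xcr1, lay between 10.4 and 139.7 units over the 5 arrays. The 7 below the filter, Lyz2, Tyrobp, Fcer1g, Adgre1, Mrc1, Itgam and Fcgr3, lay between 1.81 and 16.2 units. Among 8 B cell markers with a probe set, 1 of the 6 past the filter fell, Ighm at -0.71 (adjusted p = 0.0373), against 1.17% of all probe sets. Summed signals of the 8 were 591 on replicate 2 and 753 on replicate 1 with IL-21 at 48 h, and 513 and 779 without it. Nearly all of the difference in these sums came from Ighm. It had 400 on replicate 2 and 560 on replicate 1 with IL-21, and 295 and 560 without it. Summed signals of 3 CD4 and regulatory T cell markers were 31.8 on replicate 2 and 40.9 on replicate 1 with IL-21 at 48 h, and 45.7 on replicate 2 and 69.7 on replicate 1 without it. Those of 3 NK markers were 88.3 on replicate 2 and 85.8 on replicate 1 with IL-21, and 65.2 on replicate 2 and 79.6 on replicate 1 without it. The part of other cells in the replicate difference was not tested.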

How the data were processed

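RNA of 5 samples was measured on 1 Affymetrix oligonucleotide array each. The deposited intensity values, 1 per probe set and not on a log scale, come, per the submitters' processing notes, from the program MAS5, whose version and scaling target the sources used here do not give. They hold no detection calls. All value columns matched a sample by name, and 0 were left unmapped. Probe sets were named through platform annotation and Entrez identifiers (10817 of 10833 singly named ones matched). Another 396 with several names and 1193 without a name were given none.

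From these intensities, log2 values with an offset of 1.53 units (the 10th percentile) were quantile normalised over the 12422 probe sets that are not controls, which removes any shift shared by all genes. Probe sets above the 40th percentile of mean log2 signal were kept (7453), and 4969 were removed. Means of the groups were fitted in limma 3.58.1 (R 4.3.3) to all 5 arrays (2 residual degrees of freedom), with a variance trend, two-sided tests and adjustment by Benjamini-Hochberg at 0.05 over the 7453 probe sets. Replicate numbers were compared in an additive fit of group and number. The procedure was tested on simulated data. The number of arrays limits the precision.

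The members and lists were chosen with earlier results of these data known, so list counts and medians carry no test. Named were all members, Ifngr1, Ifnar1, Ifnar2 and Ifng, and of each pathway list those with the smallest p per comparison, up to 3. Of the genes to be named always, 1 is not reported here. Alternatives changed the scaling, offset, filter, variance trend, probe set choice, replicate block and arrays included. Motifs were searched in 250 bases upstream of RefSeq start sites.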

Additional observations from a re-analysis of the deposited data

How the results depend on the processing

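The median over the tested members stayed below 0 by replicate number under all alternatives run, whereas it changed sign for IL-21 and for 72 h. Scaling on hybridisation controls gave -0.0040 for IL-21 and 0.20 for 72 h, against 0.19 and -0.03 as reported. With variances not tied to mean signal, 0 probe sets and 0 members passed in every comparison (at 72 h, 1843 had an unadjusted p under 0.05). On the values as deposited, which shift the median of all genes by 0.57 for IL-21, -0.58 for 72 h and -0.14 for replicate number, 696, 2128 and 525 probe sets passed, of them 2, 3 and 9 members, and the members' medians were 0.76 for IL-21 and -0.50 for 72 h. Of these calls 696 were higher and 0 lower for IL-21, 101 higher and 2027 lower for 72 h, and 117 higher and 408 lower for replicate number. Centring on array medians (shifts of -0.17 for 72 h and 0.11 for replicate number) gave 122 higher and 552 lower at 72 h with 0 members, and 326 calls for replicate number, 235 higher and 91 lower. Scaling on hybridisation controls (shifts of -0.19 for IL-21 and 0.12 for 72 h) gave 320 higher and 326 lower at 72 h with 2 members, and 110 higher and 62 lower for replicate number.

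Without a filter, 0 members passed at 72 h and 103 probe sets by replicate number. With the filter at the 60th percentile the members' median at 72 h was 0.57, and 3 members passed by replicate number. Isg15 and Iigp1 lay below that filter and were not tested. Samhd1 was the only effector left, so the class differences, 1.5 for 72 h and 1.02 for replicate number, set this gene against the GTPases left. An offset of 20 gave a class difference of 0.16 at 72 h, and 365 probe sets and 9 members by replicate number. With gene means over probe sets, 0 members passed at 72 h. The labels do not say that the 2 shared numbers pair the samples, and 2 are too few to settle it from the data (correlation of replicate differences with and without IL-21 over 7453 probe sets, r = 0.361). With the replicate block, 11 probe sets and no member passed for IL-21, and 1860 probe sets and 6 members (Samhd1, Gbp3, Ifi47, Iigp1, Ly6e and Trim30a) at 72 h, with a class difference of -0.051.

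Leaving out 1 array at a time gave 0 calls for IL-21 and members' medians of -0.16 to 0.39. At 72 h it gave 0 calls without either array with IL-21, 450 and 453 without an array lacking it, always 0 members, and medians of -0.41 to 0.37. By replicate number it leaves no test, and medians were -0.58 to -0.45. Class differences ran from -0.63 to -0.29 for IL-21, 0.073 to 0.75 for 72 h and 0.22 to 0.44 for replicate number. Log2 differences that changed sign for IL-21 ran from -3.19 to 0.97 for Isg15, -0.58 to 0.33 for Ifi47, -0.25 to 0.23 for Irf1, -0.13 to 0.090 for Ifi35, -1.38 to 0.39 for Ifi27, -0.044 to 0.63 for Eif2ak2, -0.42 to 0.12 for Samhd1, -1.41 to 1.80 for Iigp1, -0.19 to 0.83 for Irf9, -1.05 to 2.09 for Ifih1, -0.69 to 1.22 for Trim30a and -0.21 to 0.55 for Igtp. At 72 h they ran from -0.40 to 0.046 for Mx2, -0.43 to 0.33 for Igtp, -1.25 to 0.49 for Trim30a, -1.79 to 2.37 for Isg15, -0.052 to 0.016 for Irf7 and -0.75 to 0.88 for Ifih1.

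Single genes changed sign as follows, none of them past the threshold, and the cause was not tested. For IL-21, unscaled values gave Mx2 0.23, Samhd1 0.42, Ifi47 0.46, Irf1 0.54, Ifi35 0.53 and Ifi27 0.031, centring Irf1 0.0094, gene means Samhd1 0.0016, Iigp1 -0.016 and Irf7 -0.046, and hybridisation controls Igtp -0.024 and Iigp1 -0.067. At 72 h, unscaled values gave Isg15 -0.10, Irf1 -0.12 and Ifih1 -0.32, an offset of 20 Isg15 -0.18 and Ifih1 -0.024, gene means Irf7 0.48 and Ly6e -0.10, hybridisation controls Mx2 0.14 and Irf7 0.26, and the replicate block Isg15 -1.38 and Ifih1 -1.12. By replicate number, Gbp2 was 0.21 after centring and 0.17 on hybridisation controls, Irf7 -0.24 unscaled, -0.24 with gene means and -0.030 on hybridisation controls, and Ly6e -0.014 with gene means. Dim signals limit the 10 members below the filter.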

Other observations

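Between the replicate numbers at 48 h, most of the 20 probe sets with the smallest p were higher on replicate 2. The 6 named genes outside the interferon lists that lead them were chosen after their values were seen. S100a6, a calcium-binding protein, had a log2 difference of 4.88 ± 0.17 and Bcl3, an atypical IκB protein, one of 3.73 ± 0.19 (SE, limma adjusted p = 2.5e-05 and 0.00011). Lgals3, a galectin, was at 3.25 (adjusted p = 6.4e-05), and Satb1, a chromatin organiser, at 1.89 (adjusted p = 0.00017). Klrd1, a chain of NK receptors, was at 2.32 (adjusted p = 0.0004), and Gzmb, the cytotoxic protease granzyme B, at 1.20 (adjusted p = 0.00046). Ifi27 and Iigp1 were among the same 20 probe sets of smallest p, with the opposite sign. What the replicate numbers stand for is not stated in the labels, and no cause was tested.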
